A study of Drosophila melanogaster with 3 samples.

Results

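The regions described here are the 100-kb stretches of the Drosophila melanogaster genome in which no reproducible Sox15 peak was found. The 6 assembled arms were divided into 1342 bins of 100 kb from the first base of each arm (dm6 assembly), and a bin was selected on the absence of any summit of the reproducible peak list, which was thresholded by the irreproducible discovery rate (IDR). Of the 1342 bins, 354 met this rule (26.4%, 95% Wilson interval 24.1 to 28.8), and the remaining 988 held at least 1 summit, with a median of 4 and at most 23. These are called summit-free bins and summit bins in what follows. The peaks came from chromatin immunoprecipitation with sequencing (ChIP-seq) of whole prepupae of both sexes together, at an age the labels give as unknown. All animals were of 1 transgenic line with Sox15 tagged at its C-terminus with enhanced green fluorescent protein, and an anti-GFP antibody was used. There was 1 group of 3 biological replicates, with no untagged or untreated group, and the driving promoter of the transgene is not given in the sources used here. A whole-animal sample mixes all tissues, so a site occupied in few cells and a weakly occupied site cannot be told apart.

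Sox15 belongs to the Sox family of transcription factors, which contact short A/T-rich elements in the minor groove through a high-mobility-group (HMG) domain, and in the fly it is known from the wing hinge and from the socket cells of bristles. In Drosophila, the DNA around each centromere and most of the small chromosome 4 is packed as heterochromatin, which is rich in transposable elements and other repeats, poor in genes, and bound by HP1. Some genes nonetheless reside in heterochromatin, and several of these are known to need it for normal expression. Between these zones lie the euchromatic arms, where gene-dense stretches alternate with long genes and tissue-specific gene clusters.

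The summit-free bins were not without weaker peaks, and the windows around 5 of the 8 strongest of these are shown because a slightly higher signal there would have removed the bin from the set. Each spans the deposited summit and 100 bases to either side of it, read 5′ to 3′ on the plus strand of the RefSeq Release 6 assembly. Capitals mark the Sox core word AACAAT or its reverse complement ATTGTT. The windows lie at chr3R:20328088-20328288 beside CG4360, chr3L:27083920-27084120 at the promoter of CG40228, chr4:570801-571001 inside ND-49 (a subunit of respiratory complex I), chr3L:9128081-9128281 in an intron of bol (boule, an RNA-binding protein of male meiosis) and chr4:982899-983099, which is intergenic and nearest to fuss (a Ski/Sno family gene).
CG4360: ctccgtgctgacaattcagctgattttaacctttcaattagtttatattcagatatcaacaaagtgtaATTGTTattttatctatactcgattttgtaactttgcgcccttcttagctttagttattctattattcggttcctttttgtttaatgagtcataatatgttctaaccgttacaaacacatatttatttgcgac
CG40228: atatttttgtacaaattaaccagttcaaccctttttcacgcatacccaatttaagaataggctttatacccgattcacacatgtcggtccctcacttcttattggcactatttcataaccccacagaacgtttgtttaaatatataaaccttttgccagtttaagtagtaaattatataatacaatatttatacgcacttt
ND-49: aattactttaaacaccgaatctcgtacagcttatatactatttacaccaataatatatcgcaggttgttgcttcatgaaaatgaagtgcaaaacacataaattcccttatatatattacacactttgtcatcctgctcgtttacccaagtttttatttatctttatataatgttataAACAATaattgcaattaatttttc
bol: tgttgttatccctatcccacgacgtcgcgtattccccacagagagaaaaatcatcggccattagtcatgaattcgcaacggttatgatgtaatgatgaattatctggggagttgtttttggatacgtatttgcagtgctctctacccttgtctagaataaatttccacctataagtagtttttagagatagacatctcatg
fuss: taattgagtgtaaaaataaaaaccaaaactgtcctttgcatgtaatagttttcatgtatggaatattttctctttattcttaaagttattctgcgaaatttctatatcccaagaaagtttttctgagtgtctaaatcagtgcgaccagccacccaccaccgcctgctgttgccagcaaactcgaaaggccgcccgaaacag
The word occurred once each at CG4360 and ND-49 and was not in the other windows, which says only that these letters are not in these windows.

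The pooled signals at these positions, on the authors' unstated signal scale, were 114.5 at CG4360, 113.9 in bol, 113.2 at CG40228, 113.1 near fuss and 112.7 in ND-49. The weakest peak of the IDR list had a signal of 116.6. At CG4360, 185 bp from the gene start, the signals in the lists of replicates 1, 2 and 3 were 51.3, 24.8 and 28.6. Among the 8 strongest were also positions next to CG34236 on 2R (115.5, the highest signal in any summit-free bin) and in an intron of Tmtc2 (112.5). All 8 were covered by at least 50% in each of the 3 replicate lists. On the other side of the limit, 150 bins held exactly 1 IDR summit, and the strongest signal in these bins ran from 116.7 upward with a median of 170.7. The IDR list consisted of the 4555 strongest of the 14164 pooled peaks, so these values restate the rule. In 40 of the 354 summit-free bins the strongest pooled peak had a signal of at least 100.

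Summit-free bins were concentrated towards the centromeres. On the 5 major arms, 127 of 153 bins within 3 Mb of the centromere end had no summit (83.0%, 76.3 to 88.1), against 75 of 150 bins at 3 to 6 Mb (50%, 42.1 to 57.9) and 144 of 1025 bins farther out (14%, 12.1 to 16.3). All intervals here and later cover counting error only, and neighbouring bins are not independent of each other. Together with chromosome 4, which is shorter than 3 Mb, the centromere-end zone held 135 of the 354 summit-free bins (38.1%, 33.2 to 43.3) but 12.4% of all bins. The limit at 6 Mb was placed after the profile along the arms had been seen. Towards the other end of the arms the share was not raised, with 7 of 50 bins within 1 Mb of the telomere end (14%, 6.95 to 26.2).

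**Figure D1:**
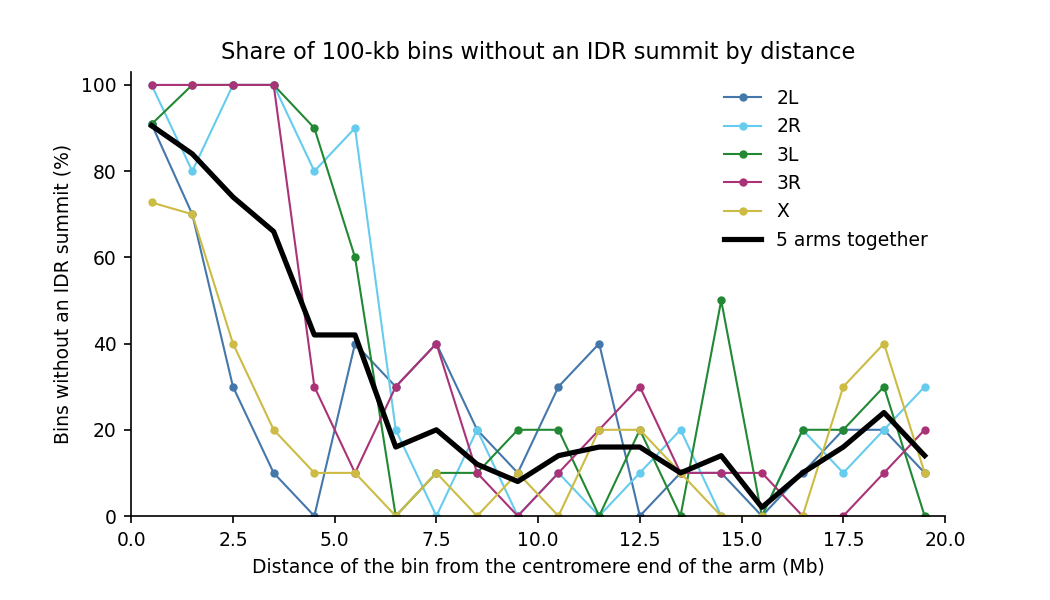
Percent of 100-kb bins without an IDR summit (y axis) by distance from the centromere end of the arm in steps of 1 Mb (x axis), for each of the 5 major arms (coloured points) and for all of them together (black line). The combined share falls from 90.6% in the first Mb to 16% at 6 to 7 Mb, with 2R, 3L and 3R staying high farther out than 2L and X.

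The arms differed in how far this zone reached. For the 5 major arms together the share was 90.6% in the first Mb, 84% in the second, 74% in the third and 66% in the fourth, then 42% in each of the next pair and 16% at 6 to 7 Mb. On 3R every bin of the first 4 Mb was summit-free, and on 3L and 2R the share was still 60% and 90% at 5 to 6 Mb. On 2L and X it had dropped to 30% and 40% at 2 to 3 Mb. Over whole arms the share was lowest on X (43 of 236 bins, 18.2%), between 24.6% and 30.4% on 2L, 3R, 3L and 2R, and highest on chromosome 4 (8 of 14 bins, 57.1%, 32.6 to 78.6).

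The bins formed 150 uninterrupted runs. Of these, 104 were single bins and 28 were pairs, while 10 runs of 5 or more bins together held 168 bins (47.5%). Farther than 6 Mb from a centromere end no run exceeded 3 bins, so the long gaps were pericentric and the gaps in the arms were short. Of the 354 bins, 190 had a summit in an adjacent bin.

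The longest run was chr3R:1-4200000, with 42 bins and 14 protein-coding gene starts. Its longest genes were Myo81F (a myosin heavy chain), Pzl (a Piezo-like channel), Parp1 (poly(ADP-ribose) polymerase) and spok (spookier, a cytochrome P450 of ecdysone synthesis), besides CG42402 and CG41099. The pooled list had 7 relaxed peaks in these 42 bins, and replicates 1, 2 and 3 had 10, 21 and 17. The second, chr3L:23200001-27200000, had 40 bins with 27 gene starts, among them Snap25 (a synaptic SNARE protein), AGO3 (a piRNA-pathway Argonaute), nAChRalpha4 (a nicotinic receptor subunit), lovit, l(3)80Fg and CG40470. It held 24 pooled peaks and 21, 60 and 49 in the replicates. Close by, chr3L:27300001-28110227 added 9 bins with l(3)80Fj and eIF4B (a translation initiation factor) as its 2 gene starts and 5 pooled peaks.

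A further 3 of the 8 longest runs lay on 2R. Their 24, 13 and 10 bins included uex (a CNNM-family magnesium transporter), dpr21, CG17684, CG41520, CG41378 and MFS17 in the first, rl (rolled, the fly ERK kinase), DIP-lambda, CG40498, CG40191 and CG46302 in the second, and Nipped-A and Nipped-B (a chromatin-complex scaffold and the cohesin loader), Gprk1, Ir41a, d4 and Stlk in the third. The pooled list had 3, 3 and 24 relaxed peaks in them. The third was 51.7% annotated transposable element, against 4.63% in the second, so the run with the most relaxed peaks was the richer of these in elements. On 2L, chr2L:21900001-23100000 had 12 bins with 39 gene starts, among them lt (light, a vacuolar sorting protein), Cht10 (a chitinase), Ir40a, Marf1, CG40006 and CG42748, and held 29 pooled peaks. The run chrX:21700001-22400000 had 7 bins with 21 gene starts, with CG46512, CG46511 and CG46515 as the longest. It had 0 peaks in the pooled list and in each replicate list. Its gene starts were not spread evenly, since 12 and 9 of them lay in the adjacent bins chrX:22100001-22200000 and chrX:22200001-22300000. The part of read placement in this absence of peaks was not tested.

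Gene density, which the rule did not use, differed between the sets. Summit-free bins had a median of 2 protein-coding gene starts (quartiles 0 and 6), against 12 (7 and 17) in summit bins. No protein-coding gene started in 109 of the summit-free bins (30.8%), and the same held for 3 of the 988 summit bins (0.304%). Coding sequence made up a median of 3.49% and 20.1% of the bin. The difference persisted in the outer arms, where the 144 summit-free bins farther than 6 Mb from a centromere end had a median of 5.5 gene starts and 9.44% coding sequence, against 13 and 20.6% in the 881 summit bins of the same zone. A bin with few starts also holds few promoters, and the part of promoter number in the difference was not tested.

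**Figure D2:**
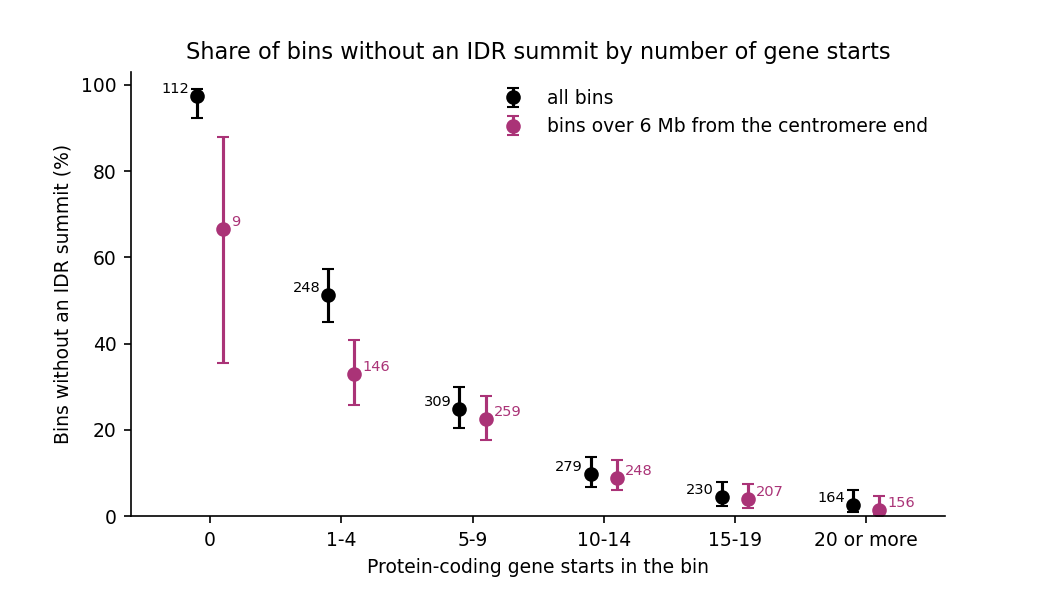
Percent of bins without an IDR summit (y axis) by the number of protein-coding gene starts in the bin (x axis), over all 1342 bins (black) and over the 1025 bins farther than 6 Mb from a centromere end (purple). Bars are 95% Wilson intervals and the small numbers give the bins in each class; the share falls from 97.3% with 0 starts to 2.44% with 20 or more.

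Across all bins the summit-free share fell with each step in gene starts. It was 97.3% (109 of 112) with 0 starts, 51.2% (127 of 248) with 1 to 4, 24.9% (77 of 309) with 5 to 9, 9.68% (27 of 279) with 10 to 14, 4.35% (10 of 230) with 15 to 19 and 2.44% (4 of 164) with 20 or more. Farther than 6 Mb from a centromere end the order was the same, at 66.7%, 32.9%, 22.4%, 8.87%, 3.86% and 1.28%, although only 9 bins there had 0 starts. At the same number of starts the 2 sets of percentages were thus closest in gene-rich bins and farthest apart in bins with 0 to 4 starts.

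Repeat-masked bases were most frequent in the centromeric part of the set. Annotated transposable elements covered a median of 7.46% of summit-free bins and 0.734% of summit bins, and repeat-masked bases 25.4% and 15.8%. By zone, the median repeat-masked share of summit-free bins was 38.2% within 3 Mb, 33.1% at 3 to 6 Mb, 17.8% farther out and 28.5% on chromosome 4, and 15.7% in summit bins of the outer arms. Summit-free and summit bins of the outer arms were thus close in repeat-masked bases, while transposable elements covered a median of 3.89% against 0.44%. In summit-free bins the element median was 9.25% within 3 Mb, 12.2% at 3 to 6 Mb and 24.1% on chromosome 4. The 26 summit bins within 3 Mb had medians of 7.56% element and 21.4% repeat-masked. Of these summit bins 30.8% were at least 20% element, against 17.3% of the summit-free bins within 3 Mb. Near the centromere the sets thus differed in repeat-masked bases more than in elements. Reads from repeats cannot always be placed, how the authors treated such reads is not given in the sources used here, and the part of mappability in any of these gaps was not tested. Of the 354 bins, 321 contained no unknown base.

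**Figure D3:**
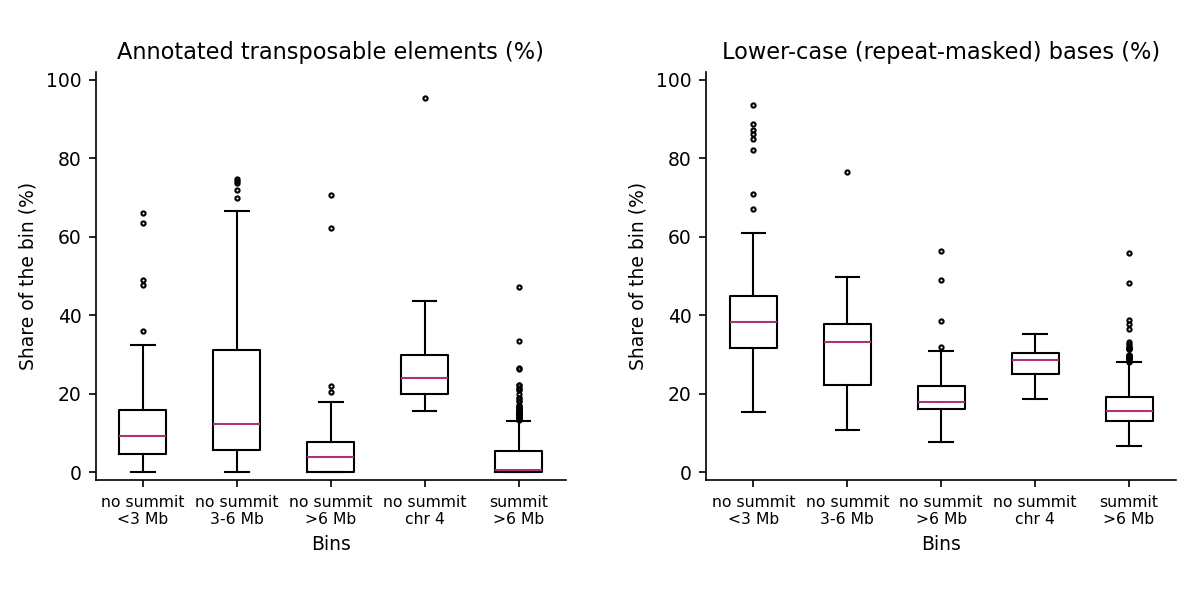
Percent of each bin covered by annotated transposable elements (left) and by lower-case, repeat-masked bases (right) in summit-free bins by distance from the centromere end and on chromosome 4, beside summit bins over 6 Mb from the centromere end. Boxes span the quartiles with the median in purple, whiskers reach to 1.5 interquartile ranges and points are single bins; the repeat-masked median falls from 38.2% within 3 Mb to 17.8% beyond 6 Mb.

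Base composition and the density of the Sox core word did not set the bins apart to a like degree. The median GC content was 40.5% in summit-free and 42.6% in summit bins, and the word AACAAT (either strand) occurred at a median of 123 and 116 matches per 100 kb. The 8 summit-free bins of chromosome 4 had a lower GC content, 35.1%, and a median of 9.19 matches per 100 kb to TATCGATA, the core of the DNA replication-related element bound by DREF, against 2.21 in all summit-free bins. The summit bins of chromosome 4 were not summarised apart, so these values may hold for the whole chromosome and are not tied to the absence of a summit. Both words are short and A/T-rich, and a match describes letters, not a binding site. In promoter windows, from 250 bases before to 50 after a protein-coding gene start, AACAAT was present in 29.9% of 1423 promoters in summit-free bins and 32.3% in summit bins (32.1% of all promoters). For TATCGATA the shares were 5.34% (4.29 to 6.63) and 9.81% (9.31 to 10.3), with 9.36% over all promoters, at a mean GC content of 38.9% and 39.1%. Both words were counted on both strands. The promoters in summit-free bins include those of 111 histone genes, which are near-identical copies. They are not independent, and the shares without them were not taken.

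Of 13945 protein-coding genes, 1423 (10.2%) started in a summit-free bin, and of all 18164 annotated genes other than transposable elements 2169 did (11.9%). In the outer arms, beyond 6 Mb from the centromere end, 963 of 12422 protein-coding genes (7.75%) did so. The shares of gene lists are read against these. Genes of a cluster share a bin and are not independent, and no test was made.

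**Figure D4:**
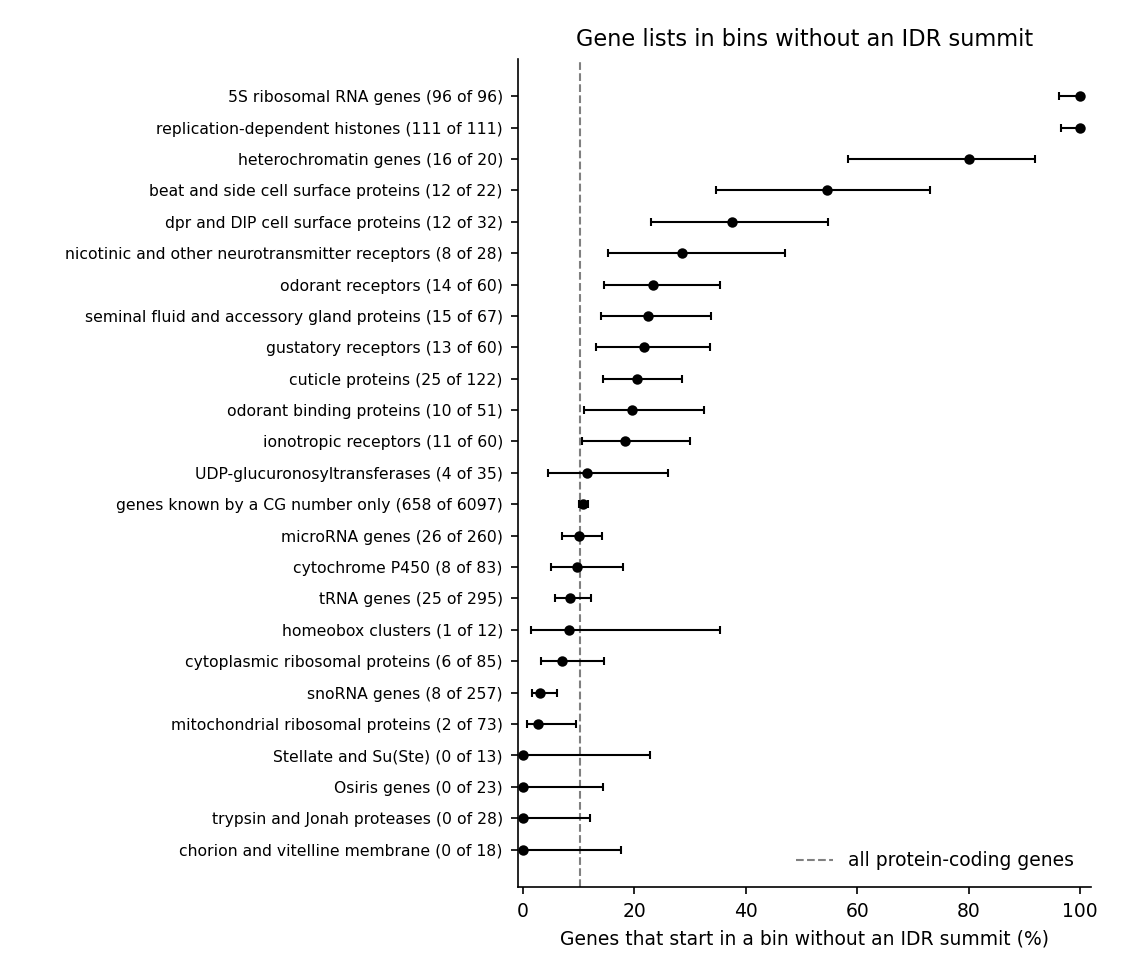
Percent of the genes of each list that start in a summit-free bin (x axis), with 95% Wilson intervals for counting error, for 25 lists ordered by that percent; the number of genes is given with each name. The dashed line marks the 10.2% of all protein-coding genes; 5S ribosomal RNA, histone and known heterochromatin genes lie at the top, and 4 lists have 0 genes in such bins.

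Apart from the genes known from heterochromatin, cell-surface proteins of neuronal wiring were the lists of dispersed genes with the largest shares. The beat and side genes, immunoglobulin proteins of axon guidance and their partners, had 12 of 22 starts in summit-free bins (54.5%, 34.7 to 73.1), spread over 11 bins, and 11 of 21 in the outer arms (52.4%). They included beat-Ic and beat-Ia in 1 bin, chr2L:16000001-16100000, which held 1 pooled peak and 3, 5 and 1 peaks in the replicates. Also among them were beat-IIIb, side-VI, beat-Vc, beat-VI and side itself. The dpr and DIP genes, whose products pair neurons with their synaptic partners, had 12 of 32 in such bins (37.5%, 22.9 to 54.7), over 11 bins, and 7 of 26 in the outer arms (26.9%), among them DIP-eta and DIP-theta together at chr2L:5600001-5700000. Of the neurotransmitter receptor genes, 8 of 28 (28.6%, 15.3 to 47.1) did, over 7 bins. They included nAChRalpha1 and nAChRalpha2 in 1 bin, the GABA receptor gene Rdl and the glutamate receptor gene GluRIA. Counted by bin, 11 of 21 bins with a beat or side gene were summit-free, beside 26.4% of all bins. For dpr and DIP genes it was 11 of 31 bins, and for receptor genes 7 of 25. The part of gene density in these shares was not tested.

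Some summit-free bins lay largely inside a single long gene. In the outer arms 48 of 144 summit-free bins (33.3%, 26.2 to 41.4) were at least 50% covered by 1 protein-coding gene, against 156 of 881 summit bins (17.7%, 15.3 to 20.4). The longest such genes outside the 3 Mb zone were Pzl (709 kb), kirre (394 kb, an adhesion protein of myoblast fusion), Ten-a (292 kb, a teneurin of synaptic matching) and bru3 (281 kb, a Bruno-family RNA-binding protein). Then came Snap25 (225 kb), Rbp6 (179 kb, an RNA-binding protein), CG15465 (169 kb) and dpr6 (165 kb). Gprk1 (149 kb, a kinase of G-protein-coupled receptors) and CG40470 (147 kb) followed. These bins were not alike in weaker peaks. The Rbp6 bin, chr3L:17100001-17200000, lay wholly inside the gene and had 6 pooled peaks and 9, 21 and 9 in the replicates. The adjacent bru3 bins, chr3L:13600001-13700000 and chr3L:13700001-13800000, also lay wholly inside their gene and had 0 and 1 pooled peaks, with 1, 4 and 2 and then 0, 7 and 5 in the replicates.

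Chemosensory families had shares between the background and those of the wiring genes. Among odorant receptor genes 14 of 60 (23.3%, 14.4 to 35.4) started in summit-free bins, over 12 bins, among gustatory receptor genes 13 of 60 (21.7%, 13.1 to 33.6) over 8 bins, and among ionotropic receptor genes 11 of 60 (18.3%, 10.6 to 29.9) over 8. Odorant-binding protein genes had 10 of 51 (19.6%, 11.0 to 32.5) over 5. Small clusters accounted for part of these counts: Gr36a, Gr36b and Gr36c shared chr2L:17100001-17200000, and Or94a and Or94b shared chr3R:22900001-23000000. The list of seminal fluid and accessory gland genes was matched by symbol and also took in other male-specific transcript (Mst) genes. It is thus a list of male reproductive genes more broadly. It had 15 of 67 (22.4%, 14.1 to 33.7) over 7 bins. Mst84Da to Mst84Dd shared 1 bin, and Mst57Da, Mst57Db, Mst57Dc and Sfp96F shared another.

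Cuticle genes, which the prepupal epidermis uses to build the new exoskeleton, had 25 of 122 starts in summit-free bins (20.5%, 14.3 to 28.5). These 25 lay in only 5 bins. The bin chr3R:26600001-26700000 held 13 Tweedle genes, among them TwdlM, TwdlP, TwdlB and TwdlL, with 6 pooled peaks and 3, 16 and 15 in replicates 1, 2 and 3. The bin chr3R:6600001-6700000 held Edg84A, 5 Ccp84A genes such as Ccp84Ag and the Hox gene lab, with 5 pooled peaks and 3, 10 and 10 in the replicates. In both bins replicate 1 had the fewest peaks. The 23 Osiris genes, which are expressed in cuticle-secreting epithelia, were all in summit bins, as were the 28 trypsin and Jonah protease genes, the 18 eggshell genes and the 13 Stellate genes, the last within a single bin. With 0 of 23 the upper limit of the interval was 14.3%, which includes the background of 10.2%.

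The shares of the ribosomal protein lists lay under the background of all protein-coding genes, which the interval of the cytoplasmic list includes. Cytoplasmic ribosomal protein genes had 6 of 85 starts in summit-free bins (7.06%, 3.28 to 14.6), each in its own bin, and 4 of these, RpL21, RpL5, RpL38 and RpL10, lay within 6 Mb of a centromere end, so that 2 of 74 (2.70%) remained in the outer arms. Mitochondrial ribosomal protein genes had 2 of 73 (2.74%, 0.755 to 9.45), mRpL2 and mRpS5. Cytochrome P450 genes had 8 of 83 (9.64%) over 5 bins, UDP-glucuronosyltransferase genes 4 of 35 (11.4%) over 3 and genes known only by a CG number 658 of 6097 (10.8%), all near the background.

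The genes known from heterochromatin had 16 of 20 starts in summit-free bins (80%, 58.4 to 91.9). Of the 20 genes, 0 started in the outer arms, and the part of position in this share was not tested. The bins around these genes differed. Set1, a histone H3K4 methyltransferase gene, lay in a bin with 4 pooled peaks and 3, 6 and 4 in the replicates. The bin of lt and cta (a G-protein subunit) had 2 pooled peaks and 5, 5 and 7 in the replicates. By contrast, the bins of Myo81F, spok and FASN3 (a fatty acid synthase) had 0 peaks in all 4 lists.

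The most gene-rich summit-free bins were of a different kind. A pair of neighbouring bins, chr2L:21400001-21500000 and chr2L:21500001-21600000, held 72 and 41 protein-coding starts, and these included all 111 replication-dependent histone genes, such as His1:CG33801 and His2B:CG33910. The first had 0 peaks in every list, and the second had 0 pooled peaks and 2, 0 and 2 in the replicates. All 96 annotated 5S ribosomal RNA genes likewise lay in 1 summit-free bin, on 2R, with 9 tRNA genes and 5 odorant-binding protein genes of the Obp56 cluster, and this bin had 3 pooled peaks. Both arrays consist of near-identical copies, and the part of read placement in these counts was not tested.

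The other gene-rich summit-free bins held unique genes and relaxed peaks. The bin chr3L:11100001-11200000 had 23 starts, including Sod1 (superoxide dismutase), FoxK and wls (Wntless, needed for Wnt secretion), with 10 pooled peaks of signal up to 92.8 and 20, 18 and 8 in the replicates. The bin chr3R:25800001-25900000 had 20 starts, including Acam (a testis calmodulin relative) and the Mst57D genes, with 7 pooled peaks of up to 110.1. The bin chr3L:7400001-7500000 had 19 starts with ppk26 (a channel subunit), chr3R:25300001-25400000 had 19 with CHKov1, CHKov2 and tobi (an insulin-responsive glucosidase), and chr3L:22600001-22700000 had 18. A bin on 2R with 18 starts held SerT, the serotonin transporter gene. Their pooled peaks numbered 8, 4, 4 and 6.

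Relaxed peaks were present but few. The pooled list had 955 of its 14164 peaks (6.74%) in summit-free bins, or 2.70 per bin against 13.4 per summit bin. In replicates 1, 2 and 3 the summit-free bins held 1288 of 19304, 2077 of 19033 and 1782 of 16102 peaks, which is 3.64, 5.87 and 5.03 per bin. The mean over replicates was 4.85 ± 1.13 (SD, n = 3) per summit-free bin and 16.6 ± 1.93 (SD, n = 3) per summit bin, and the values did not overlap. Because the replicates made up the pool from which the IDR list was taken, this difference describes the rule and supports nothing further.

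**Figure D5:**
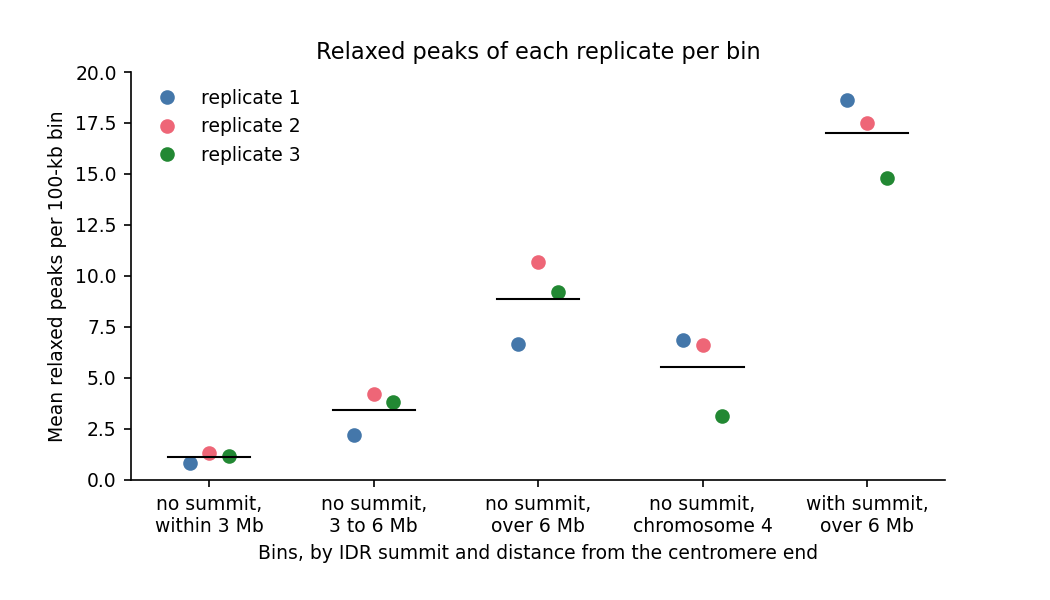
Mean number of relaxed peaks per 100-kb bin (y axis) in each of the 3 replicates (coloured points; black line, mean of the 3) for summit-free bins by distance from the centromere end and on chromosome 4, and for summit bins over 6 Mb from the centromere end. Replicate 1 is the lowest of the 3 in the summit-free bins of the major arms and the highest in the summit bins.

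The replicates changed order between the sets. In the summit-free bins of the outer arms replicates 1, 2 and 3 had 6.68, 10.7 and 9.19 peaks per bin, so that replicate 1 was lowest. In the summit bins of the same zone they had 18.6, 17.5 and 14.8, and replicate 1 was highest. The order with replicate 1 lowest also held within 3 Mb of the centromere end (0.827, 1.34 and 1.16) and at 3 to 6 Mb (2.21, 4.23 and 3.81), but not on chromosome 4, where the values were 6.88, 6.63 and 3.13. Peaks of the 3 replicates in summit-free bins also differed in where they lay. Of those of replicate 1, 21.2% lay at a promoter, within 500 bp of an annotated start site, and 55.2% overlapped a pooled peak. In replicate 2 the shares were 13.8% and 32.9%, and in replicate 3 they were 12.3% and 32.1%. Bases G and C made up a median of 39.3%, 40.3% and 43.8% of the sequence up to 100 bp from their summits. In summit bins replicate 1 also led, with 30.2%, 26.2% and 25.6% at promoters and 69.3%, 64.8% and 66.4% overlapping a pooled peak. The GC medians there were 37.3%, 36.8% and 39.3%, again highest in replicate 3. These leads were thus not particular to summit-free bins. Read depth and background of the libraries were not available as values, and their part in the replicate differences was not tested.

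By the lists with a peak, the bins fell into 3 classes. There were 213 bins with at least 1 pooled peak, 55 with 0 pooled peaks but a peak in some replicate, and 86 (24.3%) with 0 peaks in all 4 lists. A peak in each replicate was also found in 213 bins, but not in the same ones, since 12 bins with a pooled peak had 0 peaks in at least 1 replicate. In the outer arms 139 of 144 summit-free bins had a peak in each replicate and 3 had none in any list. Of the 86 bins, 17 lay farther than 3 Mb from the centromere end: 10 on 2R, 3 each on 3L and 3R, and the first bin of X, chrX:1-100000, which has 0 protein-coding starts.

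Applying the same rule to each replicate alone, with its 4555 strongest peaks, gave 364, 345 and 329 empty bins. Of the 354 summit-free bins, 346 (97.7%), 324 (91.5%) and 308 (87.0%) were among them, which is 95.1%, 93.9% and 93.6% of the bins empty in that replicate. In 286 bins (80.8%) all 3 replicates and the pool were empty. The strongest 4555 peaks of replicates 1, 2 and 3 had 10, 31 and 51 members in summit-free bins. The replicates thus left largely the same bins empty, as far as lists that also formed the pool can show.

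The 955 pooled peaks in summit-free bins were set beside the 8654 pooled peaks in summit bins that were also weaker than the IDR limit. Their median signal was 54.4 against 60.2. A peak was matched in all 3 replicates when each list covered at least 50% of it, which held for 28.9% (26.1 to 31.9) and 34.1% (33.1 to 35.1). By replicate, the matched shares were 71.4% and 85.1% in replicate 1, 68.1% and 70.1% in replicate 2, and 57.3% and 55.3% in replicate 3, so the sets differed chiefly in replicate 1. Peaks in summit-free bins were farther from gene starts, at a median of 3251 bp against 2002 bp. They lay at promoters in 21.2% (18.7 to 23.9) against 25.2%, in introns in 39.2% against 43.6%, and in intergenic sequence in 32.0% (29.2 to 35.1) against 23.3%. The word AACAAT lay within 100 bp of the summit in 19.3% (16.9 to 21.9) and 21.9% (21.1 to 22.8), and a transposable element in 1.68% and 0.416%.

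Within 3 Mb of the centromere end and on chromosome 4, the few relaxed peaks lay near genes. Of 98 pooled peaks there, 46 (46.9%, 37.4 to 56.7) were at promoters and 6 (6.12%) lay in a transposable element. Their median distance to a gene start was 824 bp, against 3710 bp for the 857 pooled peaks in the other summit-free bins. They came from few bins, since 97 of the 127 summit-free bins within 3 Mb of the centromere end had 0 pooled peaks, as did 1 of the 8 on chromosome 4. All 3 replicates matched 33 of the 98 (33.7%, 25.1 to 43.5). Chromosome 4 had a mean of 3 pooled peaks per summit-free bin, against 0.583 within 3 Mb of the centromere end. The run chr2L:21900001-23100000, with 39 gene starts, alone held 29 of the 98. Promoter shares were not taken for these zones apart, so 46.9% need not hold in the gene-poor bins.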

How the data were processed

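Each deposited list is a narrowPeak file, per the labels a ChIP-seq product in dm6; the dm3 versions were not used. The authors' signal value has no stated scale and was used only within 1 list. The deposited −log10 q-value was not used for any result, and the deposited summit offset gave the position (column 2 plus column 10). The authors' p-value column is a placeholder. Per the file listing, relaxed lists were made for each replicate and for the pool, with a control file among the inputs; that control is not analysed here. Which aligner and caller were run is not given in the sources used here. Fragments of 200 to 800 bp were sonicated, per the labels. No read counts were given, so depth is unknown and precision rests on 3 libraries.

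Summits, gene starts (Ensembl release 115, protein-coding unless stated), coding sequence, transposable elements, repeat-masked bases and words on both strands (RefSeq Release 6, whose arm lengths fit the lists) were counted per bin with Python 3.11.15, numpy 2.4.6, pandas 2.3.3 and scipy 1.17.1. The counting was tested on simulated data. The centromere end is the last base of 2L, 3L and X and the first of 2R, 3R and 4. With 1 group of samples, and members selected on the peaks, no test was made: counts, medians and 95% Wilson intervals describe the bins. The bins and the 25 gene lists, matched by symbol, were chosen with earlier results of these data known. Named were the 8 longest runs, the 8 bins with the strongest pooled peak, the 8 with most gene starts, bins without any peak, the 10 longest genes covering at least 50% of a bin, and up to 4 genes per list from its fullest bins; other names were chosen after their values were seen. The windows printed are those of the 6 strongest positions outside 2R that lie in no UTR, and 1 of the 8 strongest positions is not reported here.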

Additional observations from a re-analysis of the deposited data

How the results depend on the processing

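The 354 bins rest on bin size and on the peak limit. With 50-kb bins there were 1099, 26.2% of them near the centromere end and 21.4% repeat-masked at the median; with 200-kb bins there were 101, with 57.4%, 36.2% and a median of 0 pooled peaks. With the stronger 2277 IDR peaks alone there were 527, 27.7% near, with medians of 4 gene starts, 21.5% repeat-masked and 4 pooled peaks. With no pooled peak at all there were 141, 69.5% near, with 0 gene starts and 38.2% repeat-masked. A near limit of 2, 5 or 6 Mb gave 27.7%, 53.4% or 59.3%; the last was chosen after seeing the data, as were the lists of single replicates. Without 1 replicate in turn, using the other lists, there were 400 to 413 bins, 33.4% to 34.3% near, with 2.5 to 3 gene starts, 23.4% to 23.8% repeat-masked and 2 pooled peaks at the median; relaxed peaks per bin were 4.34 to 5.45. The 4555 strongest peaks of each replicate gave a mean of 0.0866 per bin. Matching in all replicates was 33.5% at any overlap and 4.19% at 90% cover, and 29.6% of pooled peaks lay within 1000 bp of a start. Every value kept its place with bins starting at 50 kb, with full-length bins only, and when any overlap of an IDR peak with the bin counted: shares and medians stayed within their 95% intervals and the number of bins within 1.5 times 354. No paired analysis was possible because there is 1 group of samples. Depth is unknown, so a weak site and an absent one cannot be told apart.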

Other observations

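Other annotated classes are given beside the 11.9% of all genes other than transposable elements that started in a summit-free bin. Of annotated transposable elements, 3057 of 5809 (52.6%, 51.3 to 53.9) started there, and 347 of 1851 (18.7%) in the outer arms beyond 6 Mb. Pseudogenes had 93 of 268 (34.7%, 29.3 to 40.6) overall and 17 of 157 (10.8%) in the outer arms, where 7.75% of protein-coding genes did. Non-coding RNA genes had 519 of 3261 (15.9%) overall and 324 of 2736 (11.8%) in the outer arms. MicroRNA genes had 26 of 260 (10%, 6.92 to 14.2) over 18 bins, and 6 of them, mir-959 to mir-964, form a cluster in the bin of DIP-eta and DIP-theta. Small nucleolar RNA genes had 8 of 257 (3.11%, 1.59 to 6.02) and tRNA genes 25 of 295 (8.47%, 5.81 to 12.2). The intervals of the microRNA and tRNA genes include the 11.9% of all genes.

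In the outer arms, 2 adjacent bins of 2R had 0 peaks in all lists, 0 protein-coding starts and transposable elements over 62.1% and 70.7% of their length. These bins lay 6.35 and 6.45 Mb from the centromere end, just past the 6 Mb limit that was placed after the profile had been seen. Only 4 of the 144 summit-free bins beyond 6 Mb were at least 20% transposable element, so this pair was unlike most of that zone. Chromosome 4 offered a contrast: its 8 summit-free bins had a median of 6 gene starts and 18.6% coding sequence, with transposable elements over a median of 24.1% and 3.5 pooled peaks.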
